A study of Mus musculus with 8 samples.

Results

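Wnt signalling was described across 58 genes of mouse skin keratinocytes, chosen by name from the 24421 gene symbols of the count tables. The members were all symbols that begin with Wnt, Fzd, Sfrp, Dkk or Rspo followed by a digit, and 17 further named genes of the pathway. These 17 were the co-receptors Lrp5 and Lrp6, the R-spondin receptor Lgr4, the ligases Rnf43 and Znrf3, the inhibitor Wif1, the secretion factors Porcn and Wls, the intracellular components Ctnnb1, Axin1, Axin2, Nkd1 and Nkd2, and the transcription factors Tcf7, Tcf7l1, Tcf7l2 and Lef1. The rule uses names and no measured value, but it was chosen with earlier results of these data known. Bulk RNA-seq of total RNA compared 4 libraries of InvEE K5 Cre+ HMGB1 fl/fl keratinocytes (knockout) with 4 of InvEE K5 Cre- HMGB1 fl/fl keratinocytes (control), which addresses how the loss of Hmgb1, a nuclear DNA-binding protein and extracellular alarmin, alters expression in the epidermis. The strain was CBA x C57Bl/6J in both groups, and the sources used here do not give the ages of the mice. Both groups carried the InvEE transgene, which drives an activated MEK1 kinase from the involucrin promoter in suprabasal keratinocytes, and both carried the floxed Hmgb1 allele, so neither group is an unmodified mouse. Cre under the keratin 5 promoter, active in basal keratinocytes and the cells they give rise to, was carried by the knockouts alone, so the presence of Cre and the loss of Hmgb1 cannot be told apart. Whether each replicate came from a separate animal is not stated in the labels, and the p-values then reflect spread between libraries that may be partly technical. Each group held libraries with and without Y-linked transcripts, so neither group came from a single animal.

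Wnt ligands are secreted, lipid-modified glycoproteins that bind Frizzled receptors together with the co-receptors Lrp5 or Lrp6. In the canonical branch this stops the Axin-containing complex from marking beta-catenin (Ctnnb1) for degradation, and beta-catenin then acts with TCF/LEF factors on target genes. R-spondins bound to Lgr receptors remove the ligases Rnf43 and Znrf3, which otherwise clear Frizzled proteins from the surface, while SFRP, Wif1 and DKK proteins block ligand or co-receptor. In skin the pathway is known for its roles in hair follicle formation, in the hair growth cycle and in the upkeep of basal and follicle stem cells.

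Libraries held 30506676 to 34229030 counts on genes, and log2 CPM (counts scaled to TMM-adjusted library size) correlated at 0.976 to 0.993 for libraries of the same genotype and at 0.967 to 0.985 for libraries of different genotype. Library totals did not separate the groups (two-sided exact permutation p = 0.486), but the TMM scaling factors did, at 0.964 ± 0.0450 in knockouts and 1.038 ± 0.0176 in controls (SD, n = 4 each). The exact permutation p was 0.0286, which 4 against 4 libraries cannot go below. Hmgb1 itself was at 113 to 126 CPM in the knockout libraries and at 565 to 615 CPM in the controls (log2 fold change -2.32, SE 0.09, edgeR adjusted p = 3.576e-07). The epidermal keratin Krt5 was at 24204 ± 1984 CPM in knockouts and 23784 ± 2050 CPM in controls (SD, n = 4 each). Transcripts of 4 Y-linked genes were abundant in knockout replicate 1 and in control replicates 2 and 3 (6110 to 6743 counts) and near absent in the other 5 libraries (0 to 51 counts), so the sexes were unevenly spread. For the members called, and for some others, values from those 5 libraries alone are given beside the result.

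Expression of the Wnt genes was lower in the knockout wherever it passed the test, and most of the members that passed were Frizzled receptors. Of the 58 members, 46 had enough counts to be tested and 12 did not. At a Benjamini-Hochberg adjusted p under 0.05 (edgeR quasi-likelihood test over all 13016 tested genes), 7 members were lower in the knockout, 0 were higher and 39 did not pass. The 7 were the receptors Fzd2, Fzd3, Fzd7, Fzd8 and Fzd9, the R-spondin receptor Lgr4 and the ligand Wnt6. That is 15.2% of the tested members, against 4.54% of all tested genes called lower. Calls in either direction made up 8.87% of all tested genes, and 4.33% were called higher. At an unadjusted p under 0.05 there were 19 members lower and 2 higher (Wls and Wnt5b), where 13.2% of all tested genes were lower and 13% higher at that threshold. The median log2 fold change was -0.33 over the tested members and -0.02 over all tested genes, and 76.1% of tested members had a fold change below 0, against 53.1% of all tested genes. The lowest library of one group lay above the highest of the other for 9 tested members, 8 of them lower in the knockout and 1 (Wls) higher. As shares these were 19.6% of tested members against 17% of all tested genes in either direction, and 17.4% against 9% for genes lower in the knockout. In bulk libraries such as these, fewer cells of a type and less RNA per cell cannot be told apart.

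**Figure D1:**
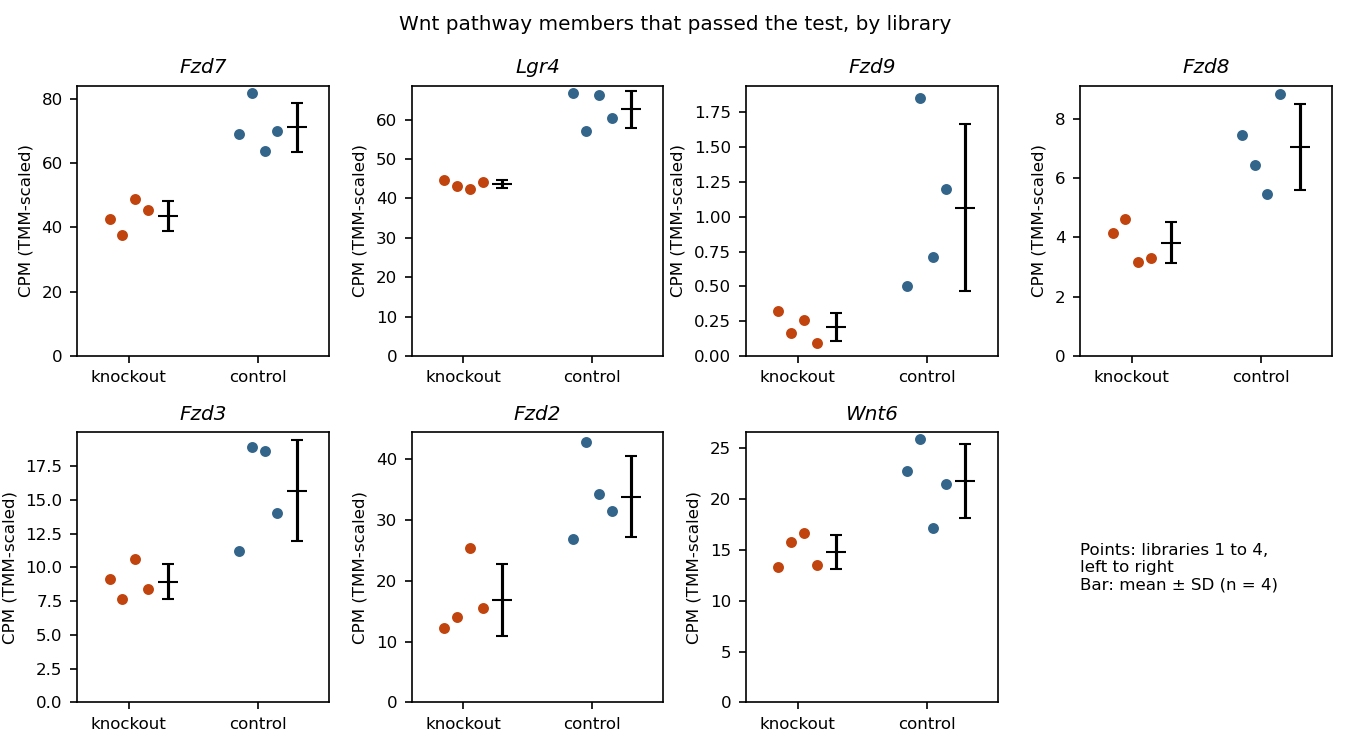
CPM (counts scaled to TMM-adjusted library sizes) of the 7 members called lower in the knockout, one panel per gene, with each point 1 library, knockout left and control right, and the bar and whiskers showing the mean ± SD of 4 libraries. In every panel the 4 knockout points lie below the 4 control points, and Fzd9 is at 1.85 CPM or less in all libraries.

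In the fit to the 5 libraries without Y-linked transcripts (knockout replicates 2, 3 and 4 against control replicates 1 and 4), 5 of 45 tested members were lower (11.1%), against 1.83% of the 13256 genes tested there. Fzd7, Fzd8 and Lgr4 were among them, and the other two were the ligands Wnt10b and Wnt5a. With any 1 of the 8 libraries left out, 3 to 11 members were lower in the knockout. The lowest count, 3, was found without knockout replicate 2 and again without knockout replicate 4, and the highest, 11, without knockout replicate 3. The share of all tested genes called lower moved as well, to 1.99% without knockout replicate 2 (6.52% of tested members), 2.73% without knockout replicate 4 (6.52%) and 4.32% without knockout replicate 3 (23.9%).

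The stretches just upstream of the annotated starts of Fzd7, Fzd9, Lgr4 and Wnt6 are shown because these genes stood for the receptors, the R-spondin receptor and the ligand that were lower in the knockout. Each runs 5′ to 3′ on the gene's own strand over the 250 bases that end at the base before the RefSeq start (build GRCm38.p6, the assembly of mm10), and capitals mark matches to the TCF/LEF core motif, searched as CTTTGA or CTTTGT on both strands.
Fzd7, chr1:59481897-59482146, plus strand: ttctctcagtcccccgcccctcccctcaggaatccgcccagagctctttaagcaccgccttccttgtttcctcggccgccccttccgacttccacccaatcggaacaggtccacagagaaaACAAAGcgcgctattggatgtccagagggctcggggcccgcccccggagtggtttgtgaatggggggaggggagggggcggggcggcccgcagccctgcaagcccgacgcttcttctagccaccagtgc
Fzd9, chr5:135251048-135251297, minus strand: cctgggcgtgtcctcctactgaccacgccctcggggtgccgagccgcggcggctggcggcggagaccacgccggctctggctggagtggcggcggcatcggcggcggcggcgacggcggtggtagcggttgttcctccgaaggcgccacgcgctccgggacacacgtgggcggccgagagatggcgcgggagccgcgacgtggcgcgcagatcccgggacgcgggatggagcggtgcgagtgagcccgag
Lgr4, chr2:109917397-109917646, plus strand: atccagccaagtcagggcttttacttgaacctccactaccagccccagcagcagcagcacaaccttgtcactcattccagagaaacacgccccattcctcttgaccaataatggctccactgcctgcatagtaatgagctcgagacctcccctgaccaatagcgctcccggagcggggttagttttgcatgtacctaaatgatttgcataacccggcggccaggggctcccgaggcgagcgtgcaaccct
Wnt6, chr1:74771642-74771891, plus strand: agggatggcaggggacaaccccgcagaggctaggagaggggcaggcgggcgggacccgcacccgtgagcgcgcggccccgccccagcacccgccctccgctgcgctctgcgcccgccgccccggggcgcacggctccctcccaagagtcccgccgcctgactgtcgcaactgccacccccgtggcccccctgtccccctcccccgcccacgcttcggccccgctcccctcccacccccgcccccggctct
The Fzd7 stretch held 1 match, ACAAAG, beginning 129 bases before the start, and the other three held none. GC content was 65.2% for Fzd7, 76.4% for Fzd9, 55.6% for Lgr4 and 79.6% for Wnt6. RefSeq windows were matched by symbol for 39 of the 58 members, in 49 windows, and 10 of these held a match (20.4%), against 27.6% of all 32817 windows. A match of this length is a description of letters and does not mark a bound site, and a window without one says only that these letters are not in it. Wnt6 has several RefSeq transcripts, and its window belongs to a start inside the span of the gene, not to the first base of that span.

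Among the 19 Wnt ligands, 16 were tested and 1, Wnt6, was lower in the knockout. That is 6.25% of the tested ligands, close to the 4.54% of all tested genes called lower. Of the tested ligands 10 had a fold change below 0 and 6 above 0, with a median log2 fold change of -0.29. An unadjusted p under 0.05 was found for 7, 6 of them lower, where 13.2% of all tested genes were lower and 13% higher. Wnt6, a ligand of epithelia, was at 13.3, 15.7, 16.6 and 13.5 CPM in knockout replicates 1 to 4, against 22.7, 25.9, 17.1 and 21.4 CPM in control replicates 1 to 4. The groups did not overlap, although knockout replicate 3 and control replicate 3 lay within 1 CPM of each other. The means were 14.8 ± 1.64 CPM in knockouts and 21.8 ± 3.62 CPM in controls (SD, n = 4 each; log2 fold change -0.56, SE 0.14, adjusted p = 0.0359, 1.47-fold lower in the knockout). Leaving out 1 library at a time kept this call in 2 of 8 fits, those without knockout replicate 3 and without control replicate 3, and the 5 libraries without Y-linked transcripts gave a log2 fold change of -0.53 (adjusted p = 0.0935). Wnt6 lies on chromosome 1 (74754342 to 74785322) beside Wnt10a (74792019 to 74804176), a ligand needed for normal teeth and hair. Wnt10a was at 148 ± 15.4 CPM in knockouts and 180.5 ± 25.03 CPM in controls (log2 -0.29, SE 0.12, adjusted p = 0.153), so the neighbour did not pass the test.

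The most abundant ligands were those known to be made by keratinocytes, and none of them passed the test. Per kilobase of annotated exon, which allows levels of different genes to be compared, Wnt10a was highest at 60.0 ± 6.24 in knockouts and 73.1 ± 10.1 CPM per kb in controls. Wnt3, a canonical ligand, followed at 49.9 ± 3.45 in knockouts and 49.2 ± 5.71 CPM per kb in controls, below Wnt10a by more than the SD of either gene. Wnt4 was at 33.5 ± 4.69 in knockouts and 43.2 ± 4.90 CPM per kb in controls, and Wnt7b at 29.5 ± 4.90 in knockouts and 26.9 ± 3.64 CPM per kb in controls (SD, n = 4 each). In knockouts Wnt4 and Wnt7b differed from each other by less than their spread. Wnt6 was far below these, at 6.75 ± 0.749 in knockouts and 9.94 ± 1.65 CPM per kb in controls.

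For single ligands outside Wnt6 the tests gave the following. Wnt4, which can act through canonical and non-canonical branches, was at 141 ± 19.7 CPM in knockouts and 181 ± 20.6 CPM in controls (log2 -0.36, SE 0.12, adjusted p = 0.0791). Wnt3 was at 153 ± 10.6 CPM in knockouts and 151 ± 17.6 CPM in controls (log2 0.02, SE 0.10, adjusted p = 0.923). Wnt7b was at 145 ± 24.0 CPM in knockouts and 132 ± 17.8 CPM in controls (log2 0.14, SE 0.13, adjusted p = 0.551). The canonical ligand Wnt3a and the non-canonical ligand Wnt5a had similar estimates, log2 -0.49 each, with adjusted p of 0.0834 for Wnt3a and 0.0901 for Wnt5a. Wnt3a was called lower under 2 of 12 other settings (DESeq2, limma-voom with quality weights). It was also called in 1 of 8 fits with 1 library left out, that without knockout replicate 3. In the 5 libraries without Y-linked transcripts the log2 fold change was -0.21 for Wnt3a (adjusted p = 0.625) and -0.53 for Wnt5a (adjusted p = 0.0460), and a term for Y-linked transcripts gave -0.63 for Wnt5a (adjusted p = 0.00813), so Wnt5a was called in both of those fits. Wnt5a was at 30.2, 42.9, 47.3 and 51.7 CPM in knockout replicates 1 to 4 and 71.5, 51.1, 54.3 and 65.7 CPM in control replicates 1 to 4, so that knockout replicate 4 lay above control replicate 2. Wnt5b, a relative of Wnt5a, had the highest fold change of any tested member, at 2.73 ± 0.546 CPM in knockouts and 1.76 ± 0.519 CPM in controls (log2 0.63, SE 0.25, adjusted p = 0.135).

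Wnt10b, a ligand linked to the onset of hair growth, varied between the control libraries. It was at 5.87, 6.12, 6.69 and 7.29 CPM in knockout replicates 1 to 4, against 23.4, 13.2, 4.31 and 15.9 CPM in control replicates 1 to 4. The knockout libraries lay close together and above control replicate 3, and below the other 3 controls. With all libraries the log2 fold change was -1.13 (SE 0.41, adjusted p = 0.121). It was -1.55 (adjusted p = 0.00525) with only the 5 libraries without Y-linked transcripts, which leave out control replicate 3. Wnt2 also varied between libraries of a group, at 0, 1.67, 6.27 and 6.19 CPM in knockout replicates 1 to 4 and 2.90, 3.10, 0.554 and 3.01 CPM in control replicates 1 to 4. The remaining tested ligands, Wnt2b, Wnt7a, Wnt9a, Wnt9b, Wnt11 and Wnt16, had means under 7 CPM in both groups and adjusted p of 0.394 to 0.838. The log2 fold change of Wnt2b was -0.56 with all libraries and 0.09 in the 5 without Y-linked transcripts. Wnt1, Wnt8a and Wnt8b were not tested, with at most 15 counts in any library.

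Of the secretion factors, neither passed the test. Wls, the carrier that takes Wnt proteins to the cell surface, was at 310, 281, 261 and 263 CPM in knockout replicates 1 to 4, against 227, 240, 220.5 and 209 CPM in control replicates 1 to 4. Every knockout library was above every control, opposite in direction to the 7 members called. The log2 fold change was 0.32 (SE 0.09) with an adjusted p of 0.0550, just above the threshold, and Wls was called higher by DESeq2, by limma-voom with quality weights, with a term for Y-linked transcripts, and without knockout replicate 3. Porcn, the X-linked enzyme that attaches the lipid to Wnt proteins, was at 13.6 ± 1.12 CPM in knockouts and 17.9 ± 8.21 CPM in controls (adjusted p = 0.367). The control spread came from control replicate 3 at 30.05 CPM, while the other 3 controls were at 12.0 to 15.3 CPM.

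The Frizzled receptors were the class with the most calls. All 10 were tested, 5 were lower in the knockout and 0 were higher, where 4.54% of all tested genes were called lower. An unadjusted p under 0.05 was found for 8, all lower, against 13.2% of all tested genes. All 10 fold changes were below 0 in this fit, with a median log2 fold change of -0.76. Fzd5 lay at 0 within its error (-0.01, SE 0.17) and was just above 0 with RLE scaling, DESeq2 or no filter on low counts. The groups did not overlap for 6 of the 10, the 5 called and Fzd1, all of them lower. Over all tested genes 9% were lower without overlap. With only the 5 libraries without Y-linked transcripts, Fzd4 had too few counts to be tested, the fold changes of the other 9 were all below 0 with a median log2 of -0.51, and 2 receptors, Fzd7 and Fzd8, were called.

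Fzd7 (chromosome 1, 59482147 to 59486955), a receptor of the canonical branch found in many stem cell compartments, had the smallest adjusted p of the members. It was at 42.6, 37.5, 48.8 and 45.3 CPM in knockout replicates 1 to 4, against 69.1, 81.8, 63.6 and 69.9 CPM in control replicates 1 to 4. The highest knockout library was well below the lowest control. The means were 43.5 ± 4.75 CPM in knockouts and 71.1 ± 7.65 CPM in controls (SD, n = 4 each; log2 -0.71, SE 0.11, adjusted p = 0.00540, 1.63-fold lower in the knockout). Fzd7 was called in all 8 fits with 1 library left out and under all 12 other settings tried, including the 5 libraries without Y-linked transcripts (log2 -0.66, adjusted p = 0.0291).

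Fzd2 (chromosome 11, 102604431 to 102608058), a close relative of Fzd7 that also mediates non-canonical Wnt5a signals, was at 12.2, 14.0, 25.4 and 15.5 CPM in knockout replicates 1 to 4, against 26.8, 42.7, 34.3 and 31.5 CPM in control replicates 1 to 4. Knockout replicate 3 came within 2 CPM of control replicate 1, and the other 3 knockouts were far below all controls. The means were 16.8 ± 5.92 CPM in knockouts and 33.8 ± 6.71 CPM in controls (log2 -1.01, SE 0.23, adjusted p = 0.0280, 2.01-fold lower). The call remained in 2 of the 8 fits with 1 library left out, those without knockout replicate 3 and without control replicate 1. In the 5 libraries without Y-linked transcripts the log2 fold change was -0.67 (adjusted p = 0.231), and a term for Y-linked transcripts also ended the call (adjusted p = 0.0531). Fzd1, the third member of the Fzd1, Fzd2 and Fzd7 subfamily, was at 14.9, 11.8, 20.6 and 17.9 CPM in knockout replicates 1 to 4, against 21.2, 29.5, 32.3 and 21.3 CPM in control replicates 1 to 4. Its groups did not overlap, though knockout replicate 3 lay within 1 CPM of 2 controls, and its adjusted p was 0.0570 (log2 -0.68, SE 0.20). In the 5 libraries without Y-linked transcripts, Fzd1 had a log2 fold change of -0.34 (adjusted p = 0.484). It was called lower under 3 of the 12 other settings (DESeq2, limma-voom with quality weights, library totals only). Of the 8 fits with 1 library left out, 1 called it, that without knockout replicate 3.

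Fzd3 (chromosome 14, 65192441 to 65262463), a receptor of planar cell polarity and axon guidance, was at 9.16, 7.63, 10.6 and 8.36 CPM in knockout replicates 1 to 4, against 11.2, 18.9, 18.6 and 14.0 CPM in control replicates 1 to 4. The groups were separated by less than 1 CPM, between knockout replicate 3 and control replicate 1. The means were 8.95 ± 1.29 CPM in knockouts and 15.7 ± 3.72 CPM in controls (log2 -0.81, SE 0.18, adjusted p = 0.0240, 1.75-fold lower). The call was lost without knockout replicate 1, 2 or 4 and without control replicate 2, and also with the 5 libraries without Y-linked transcripts alone (log2 -0.51, adjusted p = 0.225). Fzd6, which orients the hairs of the mouse coat and is the nearest relative of Fzd3, was at 65.2 ± 6.01 CPM in knockouts and 78.1 ± 9.88 CPM in controls and did not pass the test (log2 -0.26, SE 0.11, adjusted p = 0.153).

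Fzd8 (chromosome 18, 9212856 to 9216201), a canonical receptor, was at 4.15, 4.61, 3.17 and 3.31 CPM in knockout replicates 1 to 4, against 7.45, 6.45, 5.45 and 8.82 CPM in control replicates 1 to 4. All controls lay above all knockouts. The means were 3.81 ± 0.689 CPM in knockouts and 7.04 ± 1.44 CPM in controls (log2 -0.89, SE 0.20, adjusted p = 0.0226, 1.85-fold lower). The call was lost without knockout replicate 4 and without control replicate 4, and held in the 5 libraries without Y-linked transcripts (log2 -1.14, adjusted p = 0.0312). Fzd5, its nearest relative, was at 25.5 ± 5.70 CPM in knockouts and 25.7 ± 4.51 CPM in controls (adjusted p = 0.983).

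Fzd9 (chromosome 5, 135248938 to 135251047) had the largest fold change of the members at a very low level. Its raw counts were 9, 5, 8 and 3 in knockout replicates 1 to 4, against 18, 58, 23 and 41 in control replicates 1 to 4. The means were 0.210 ± 0.101 CPM in knockouts and 1.06 ± 0.600 CPM in controls (log2 -2.33, SE 0.50, adjusted p = 0.0193, 5.03-fold lower). No knockout library reached the lowest control, but the controls differed among themselves more than 3-fold. The call was lost without knockout replicate 2 (adjusted p = 0.0649). It was also lost when just the 5 libraries lacking Y-linked transcripts were used (log2 -2.28, adjusted p = 0.0663). Fzd4, a receptor for the vascular ligand Norrin, was in the same low range, at 0.251 ± 0.103 CPM in knockouts and 0.619 ± 0.317 CPM in controls (log2 -1.29, SE 0.48, adjusted p = 0.112).

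Fzd10, a canonical receptor and the nearest relative of Fzd9, had the highest level of the family and did not pass the test. It was at 59.6, 89.2, 102 and 112 CPM in knockout replicates 1 to 4, against 97.3, 93.2, 71.5 and 108 CPM in control replicates 1 to 4, and the groups overlapped throughout (log2 -0.03, SE 0.19, adjusted p = 0.942). With 1 library left out the log2 fold change ranged between -0.14 and 0.13. Per kilobase of exon the order of the levels was Fzd10, Fzd6, Fzd7, Fzd2, Fzd1, Fzd5, Fzd3, Fzd8, Fzd9 and Fzd4 in both groups. Fzd10 was at 27.9 ± 7.02 in knockouts and 28.5 ± 4.73 CPM per kb in controls, and Fzd6 at 13.5 ± 1.25 in knockouts and 16.2 ± 2.05 CPM per kb in controls. Fzd7 was at 9.61 ± 1.05 in knockouts and 15.7 ± 1.69 CPM per kb in controls, so that in controls it differed from Fzd6 by less than the spread. Fzd2, Fzd1 and Fzd5 were at 4.58 ± 1.62, 3.88 ± 0.900 and 3.69 ± 0.824 CPM per kb in knockouts and differed there by less than their spread. Fzd3, Fzd8, Fzd9 and Fzd4 were at 0.0374 to 0.699 CPM per kb in knockouts and 0.0921 to 1.22 CPM per kb in controls.

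**Figure D2:**
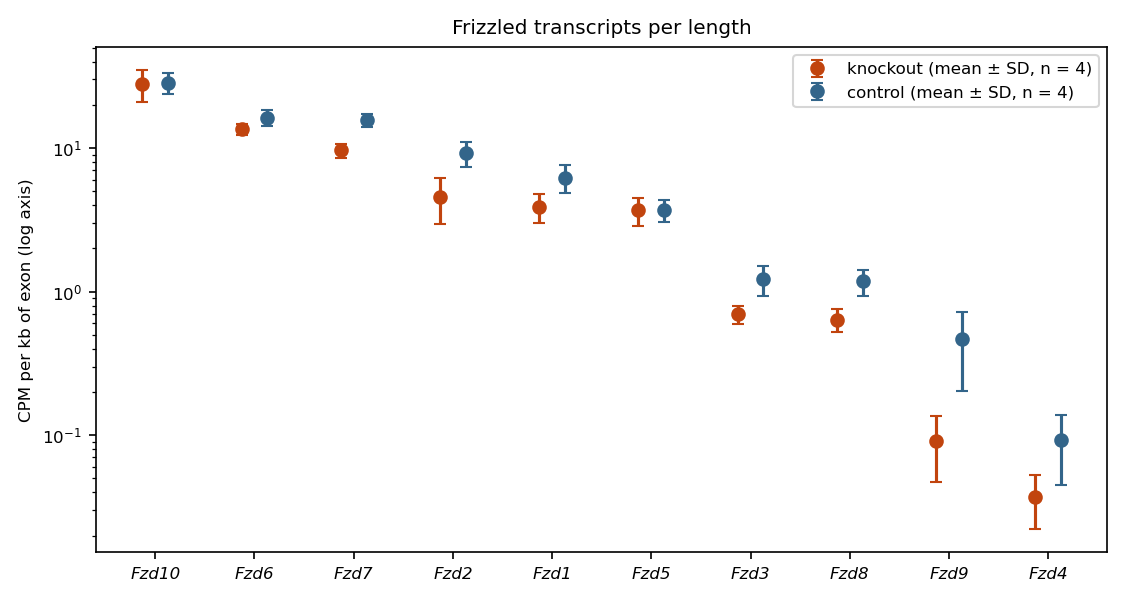
Level of each Frizzled transcript in CPM per kilobase of annotated exon (log axis), knockout left of control for each receptor, each point the mean of 4 libraries and each bar ± 1 SD. Fzd10 is highest, at 27.9 in knockouts and 28.5 CPM per kb in controls, and the bars of the groups do not touch for Fzd7, Fzd2, Fzd1, Fzd3, Fzd8 and Fzd9.

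Summed over the 10 receptors per kilobase, Frizzled transcripts were at 52.8, 61.1, 72.2 and 72.5 CPM per kb in knockout replicates 1 to 4, against 82.2, 86.4, 74.6 and 86.7 CPM per kb in control replicates 1 to 4. The sums did not overlap, and knockout replicates 3 and 4 were within 3 CPM per kb of control replicate 3. Fzd10 made up 42.7% ± 5.58 of the sum in knockouts and 34.4% ± 3.89 in controls, and Fzd2 6.99% ± 1.75 in knockouts and 11.2% ± 2.17 in controls (SD, n = 4 each). These shares are descriptions and were not tested.

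A structural feature that several of the lower receptors share is an uninterrupted coding transcript. Fzd1, Fzd2, Fzd7, Fzd8, Fzd9 and Fzd10 have 1 exon in every coding transcript of the GENCODE M21 annotation, and 4 of these 6 were called lower. Of the 4 with several exons, Fzd3, Fzd4, Fzd5 and Fzd6, 1 was called. Among all tested genes with 1 exon in every coding transcript 11.1% of 217 were called lower, against 4.58% of 11818 genes with several exons. The 217 include these 6 receptors, and the 24 of them called lower include the 4 receptors called. The median log2 fold change was -0.14 for single-exon genes and -0.02 for genes with several exons, and 66.4% of single-exon genes had a fold change below 0, against 53.0% of the others. The part of exon structure in the Frizzled result was not tested.

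The co-receptors Lrp5 and Lrp6 were both tested and neither passed. Lrp5 was at 191 ± 7.53 CPM in knockouts and 182 ± 15.6 CPM in controls (log2 0.08, SE 0.09, adjusted p = 0.619). Lrp6 was at 93.3 ± 10.3 CPM in knockouts and 103 ± 3.19 CPM in controls (log2 -0.14, SE 0.09, adjusted p = 0.362).

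Lgr4 (chromosome 2, 109917647 to 110014257), an R-spondin receptor that is broadly expressed in epithelia, was at 44.7, 43.1, 42.4 and 44.2 CPM in knockout replicates 1 to 4, against 66.8, 57.1, 66.3 and 60.3 CPM in control replicates 1 to 4. The knockout libraries differed from each other by little more than 2 CPM and all lay well below every control. The means were 43.6 ± 1.03 CPM in knockouts and 62.6 ± 4.70 CPM in controls (SD, n = 4 each; log2 -0.52, SE 0.08, adjusted p = 0.00584, 1.44-fold lower in the knockout). Like Fzd7, Lgr4 was called in all 8 fits with 1 library left out and under all 12 other settings. The 5 libraries without Y-linked transcripts gave a log2 fold change of -0.55 (adjusted p = 0.0304). The ligases on which this axis acts did not pass the test. Rnf43 was at 36.8 ± 4.88 CPM in knockouts and 38.05 ± 5.73 CPM in controls (log2 -0.05, SE 0.13, adjusted p = 0.856), and Znrf3 at 59.2 ± 5.04 CPM in knockouts and 58.1 ± 19.2 CPM in controls (log2 0.03, SE 0.20, adjusted p = 0.943).

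R-spondins themselves were near the detection limit. Rspo3, the only one tested, was at 0.739 ± 0.597 CPM in knockouts and 0.946 ± 0.584 CPM in controls (adjusted p = 0.762). Rspo2 and Rspo4 had 0 counts in every library and Rspo1 at most 5.

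Among the secreted inhibitors, none of the 3 tested passed, and the other 6 were not tested. Sfrp1, which binds Wnt ligands, was at 103 ± 25.9 CPM in knockouts and 108.5 ± 12.9 CPM in controls (log2 -0.07, SE 0.16, adjusted p = 0.814). Wif1, another ligand-binding inhibitor, was at 2.30 ± 0.798 CPM in knockouts and 3.43 ± 1.27 CPM in controls (log2 -0.57, adjusted p = 0.277; -0.04 in the 5 libraries without Y-linked transcripts). Dkk3, the divergent member of the Dickkopf family, was at 21.5, 19.8, 39.1 and 24.6 CPM in knockout replicates 1 to 4, against 26.4, 44.4, 54.2 and 40.1 CPM in control replicates 1 to 4. Knockout replicate 3 overlapped the controls, and the log2 fold change was -0.65 (SE 0.26, adjusted p = 0.149), or -0.25 in the 5 libraries without Y-linked transcripts. Sfrp2, Sfrp4, Sfrp5, Dkk1, Dkk2 and Dkk4 had at most 7 counts in any library.

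**Figure D3:**
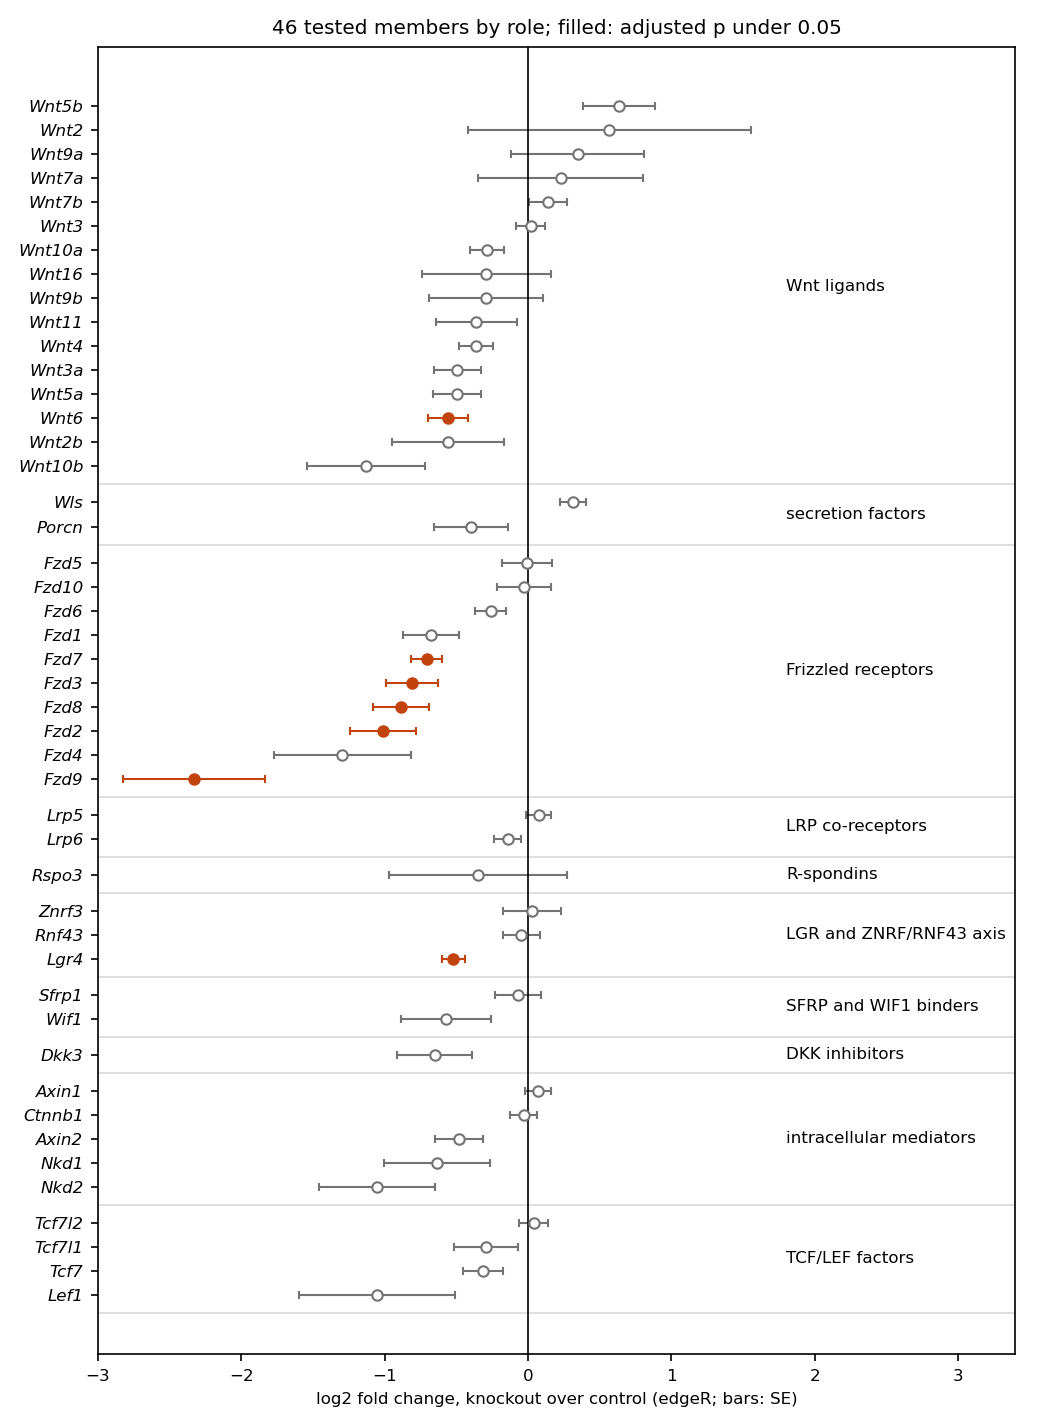
Log2 fold change, knockout over control, of the 46 tested members grouped by role, with bars of ± 1 SE; filled points passed the test at an adjusted p under 0.05. The filled points are 5 Frizzled receptors, Lgr4 and Wnt6, and each lies left of 0, at -2.33 (Fzd9) to -0.52 (Lgr4).

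Inside the cell, none of the 5 intracellular mediators or 4 TCF/LEF factors passed the test, where 8.87% of all tested genes were called. Fold changes were below 0 for 4 of the mediators (median log2 -0.48) and 3 of the TCF/LEF factors (median log2 -0.30). An unadjusted p under 0.05 was found for 2 mediators and 1 TCF/LEF factor, all lower, against 13.2% of all tested genes. Ctnnb1, which encodes beta-catenin, was the most abundant member, at 626 ± 34.4 CPM in knockouts and 639 ± 42.2 CPM in controls (log2 -0.03, SE 0.09, adjusted p = 0.865). On the GENCODE M21 annotation 15.1% of its exon bases are overlapped by Mir7090 (same strand) and Ulk4 (opposite strand) together. The sources used here do not say whether counting used strand. Axin1, a scaffold of the destruction complex, was at 108 ± 10.5 CPM in knockouts and 103 ± 7.51 CPM in controls (log2 0.07, SE 0.09, adjusted p = 0.677).

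Axin2, a scaffold that is itself a widely used target of canonical signalling, was at 35.5, 36.8, 36.1 and 48.9 CPM in knockout replicates 1 to 4, against 72.0, 49.3, 42.1 and 56.1 CPM in control replicates 1 to 4. The groups overlapped through knockout replicate 4 and control replicate 3, and the difference did not pass the test (log2 -0.48, SE 0.17, adjusted p = 0.0983). It was called lower with a term for Y-linked transcripts and without control replicate 3. Nkd1 and Nkd2, which bind Dishevelled and dampen signalling, were low. Nkd1 was at 0.602 ± 0.234 CPM in knockouts and 0.933 ± 0.287 CPM in controls (adjusted p = 0.304), and Nkd2 at 0.688 ± 0.273 CPM in knockouts and 1.42 ± 0.643 CPM in controls (log2 -1.05, SE 0.41, adjusted p = 0.130).

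Of the TCF/LEF factors, Tcf7l2 was at 20.4 ± 1.64 CPM in knockouts and 19.8 ± 1.17 CPM in controls (log2 0.04, SE 0.10, adjusted p = 0.837), and Tcf7 at 13.6 ± 1.51 CPM in knockouts and 16.8 ± 2.62 CPM in controls (log2 -0.31, SE 0.14, adjusted p = 0.187). Tcf7l1, a repressor known from follicle stem cells, was at 3.39 ± 0.762 CPM in knockouts and 4.15 ± 0.947 CPM in controls (adjusted p = 0.438). Lef1, the factor of the hair-forming matrix, was at most 1.12 CPM in any library, with means of 0.281 ± 0.1095 CPM in knockouts and 0.592 ± 0.406 CPM in controls (log2 -1.06, SE 0.54, adjusted p = 0.249).

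**Figure D4:**
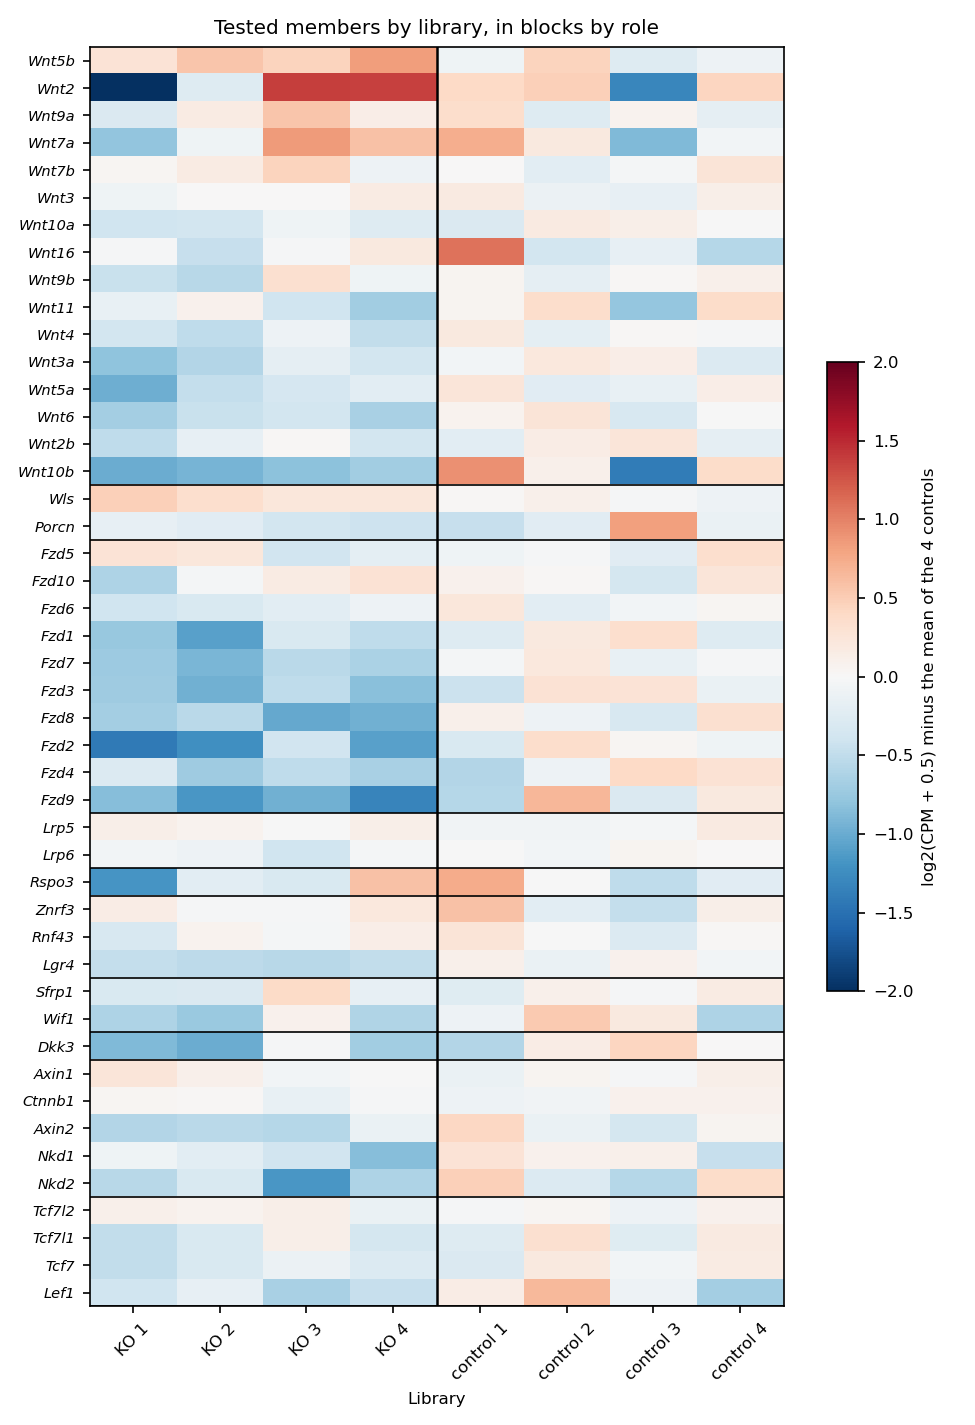
Heat map of the 46 tested members in blocks by role, with the 4 knockout libraries left and the 4 controls right; colour gives log2(CPM + 0.5) minus the mean of the controls, on a scale from -2 to 2 that Wnt2 in knockout replicate 1 exceeds. The rows of Fzd1, Fzd2, Fzd3, Fzd7, Fzd8, Fzd9 and Lgr4 are below the control mean in every knockout library. The same holds for other rows, among them Wnt3a, Wnt4, Wnt5a, Wnt6, Wnt10a, Fzd6 and Axin2. Wnt2, Wnt10b and Dkk3 vary between libraries of 1 group.

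Other genes of the pathway were counted from 4 lists, which were also chosen with earlier results of these data known. Of 26 further surface and extracellular components, 18 were tested, 8 were lower in the knockout and 0 higher, with a median log2 fold change of -0.64 over those tested, against -0.02 and 4.54% called lower over all tested genes. In the 5 libraries without Y-linked transcripts 5 of the list were lower, and of the 8 just counted 4 kept the call (Lgr5, Lgr6, Bambi and Igfbp4), while Trabd2b, Sostdc1, Gpc4 and Tmem67 lost it (adjusted p of 0.159 to 0.327). A term for Y-linked transcripts also ended the calls of Sostdc1 (adjusted p = 0.0520) and Tmem67 (adjusted p = 0.0531). Lgr5, the R-spondin receptor that marks follicle stem cells, was at 3.98 ± 1.25 CPM in knockouts and 17.0 ± 6.36 CPM in controls (log2 -2.09, SE 0.32, adjusted p = 0.00643). Lgr6, the third receptor of that family, was at 47.2 ± 4.19 CPM in knockouts and 76.0 ± 13.3 CPM in controls (log2 -0.69, SE 0.13, adjusted p = 0.0102), so Lgr4, Lgr5 and Lgr6 were all lower in the knockout. The others called were Igfbp4 (log2 -0.87), a binding protein of insulin-like growth factors that can also block Wnt receptors, Bambi (-1.73), a pseudoreceptor of the TGF-beta family, Trabd2b (-1.60), a membrane protease that inactivates Wnt proteins, and Sostdc1 (-0.75), a secreted inhibitor of Wnt and BMP. The remaining 2 were the glypican Gpc4 (-0.34) and the ciliary protein Tmem67 (-0.60). The most abundant genes of the list, the co-receptor Lrp4 and the Dickkopf receptor Kremen1, were not called. Kremen1 was at 165.5 ± 6.41 CPM in knockouts and 151 ± 10.5 CPM in controls.

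Further core components of the canonical branch were set beside all tested genes, of which 4.54% were called lower (median log2 -0.02). Of 41 such components, 38 were tested, 3 were lower and 0 higher (median log2 -0.07). Those lower were the Groucho co-repressors Tle2, at 9.83 ± 1.52 CPM in knockouts and 17.96 ± 1.13 CPM in controls (log2 -0.87, SE 0.13, adjusted p = 0.00540), and Tle1 (log2 -0.62, adjusted p = 0.0127), and the Dishevelled-binding protein Dact1 (log2 -1.05, adjusted p = 0.0471). With only the 5 libraries lacking Y-linked transcripts, 1 of the list, Tle2, was called. The most abundant, the kinases Csnk1a1 and Csnk1d, were not called.

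Of 26 genes of the non-canonical branches 23 were tested, and 1 was higher and 0 lower (median log2 -0.03). Over all tested genes 4.33% were called higher, so 1 call among 23 is close to the share over all genes. The gene called was Camk2d, a calcium-dependent kinase, at 46.3 ± 3.85 CPM in knockouts and 32.9 ± 5.88 CPM in controls (log2 0.49, SE 0.13, adjusted p = 0.0371). This call held in 2 of the 8 fits with 1 library left out, those without knockout replicate 1 and without control replicate 4. It was lost with upper-quartile scaling, with library totals, with a term for Y-linked transcripts and in the 5 libraries without them (adjusted p = 0.160). The planar polarity cadherins Celsr1 and Celsr2, the most abundant of that list, were not called.

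Genes often used as targets of beta-catenin were likewise set beside all tested genes (4.54% called lower, median log2 -0.02). Of 36 such targets, 27 were tested, 3 were lower and 0 higher (median log2 -0.16). They were Lgr5 and Bambi, which are also in the surface list, and Id2, an inhibitor of helix-loop-helix factors, at 10.6 ± 3.48 CPM in knockouts and 28.6 ± 7.05 CPM in controls (log2 -1.44, adjusted p = 0.00945). The most abundant targets, Jun and Cd44, were not called, and Cd44, the hyaluronan receptor, was at 1135 ± 251 CPM in knockouts and 794.5 ± 48.2 CPM in controls (log2 0.52, adjusted p = 0.0517).

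Markers of the cell types that such a preparation could hold were counted beside the Wnt members. Of 15 hair follicle bulge and outer root sheath markers 4 were lower in the knockout (Lrig1, Lgr5, Lgr6 and Fgf18) and 0 higher. Lgr5 and Lgr6 were already counted in the surface list above, so the calls of these lists are not independent. Over all tested genes 4.54% were called lower and 4.33% higher. Of the 15 markers, 13 had a fold change below 0, against 53.1% of all tested genes, and 9 had an unadjusted p under 0.05. The median log2 fold change of these markers was -0.39, against -0.02 over all tested genes. The 15 markers summed to 5812 to 6731 CPM in knockouts and 6345 to 7042 CPM in controls. Krt15, a bulge keratin, was at 2545 ± 128 CPM in knockouts and 2681 ± 762 CPM in controls. Of 14 hair matrix and shaft markers 5 were tested and 0 called, though all 5 had a fold change below 0 (median log2 -0.48). The matrix and shaft markers summed to 20.5 to 27.7 CPM in knockouts and 26.3 to 41.3 CPM in controls, with Krt72 at 0 in every library. Of 11 keratinocyte markers 2 were higher, among them the suprabasal keratin Krt10 at 9018 ± 1300 CPM in knockouts and 5092 ± 1265 CPM in controls, and the list summed to 71095 to 79478 CPM in knockouts and 58867 to 70951 CPM in controls. The part of these in the Wnt results was not tested.

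Markers of other cell types were counted in the same way, again beside 4.54% called lower and 4.33% called higher over all tested genes. The 10 fibroblast markers, of which 6 were tested and Dcn was called higher, summed to 266 to 377 CPM in knockouts and 195 to 279 CPM in controls, most of it Thy1, while Mfap5 was at 0 and Pdgfra averaged 0.0488 CPM in knockouts and 0.180 CPM in controls. Dermal papilla markers summed to 13.3 to 26.0 CPM in knockouts and 10.9 to 15.8 CPM in controls, with 3 of 10 tested and 1, Hhip, lower. Of the 3 tested, 2 had a fold change below 0 (median log2 -0.23), opposite in direction to the sum. Melanocyte markers summed to 12.6 to 14.3 CPM in knockouts and 17.0 to 19.4 CPM in controls, with 5 of 8 tested and Mitf and Kit lower. Leukocyte markers summed to 23.7 to 65.2 CPM in knockouts and 24.7 to 77.2 CPM in controls, with 0 of 7 tested called, and endothelial markers to 0.221 to 1.10 CPM in knockouts and 0.575 to 2.68 CPM in controls. Schwann cell markers summed to 77.4 to 106 CPM in knockouts and 36.4 to 56.4 CPM in controls. Of these 6 markers 3 were tested, with Mbp higher and Ngfr lower. Of the 3 tested, 2 had a fold change below 0 (median log2 -0.32), again opposite in direction to the sum. Muscle markers summed to 3.90 to 5.71 CPM in knockouts and 2.91 to 3.66 CPM in controls, with 2 of 7 tested and Acta2 higher. Sebaceous markers summed to 11.0 to 22.1 CPM in knockouts and 14.9 to 30.3 CPM in controls, with 6 of 7 tested and Scd3 lower. Their part in the Wnt results was not tested.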

How the data were processed

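Total RNA of skin keratinocytes was sequenced in 4 knockout and 4 control libraries, grouped by the genotype in the labels. The authors deposited raw counts for 24421 gene symbols in each library, not normalized. Per the submitters' processing notes, the tools were Trimmomatic 0.35, FastQC 0.11.4, SAMtools 0.1.18 and TopHat2 2.1.0, on mm10. The sources used here do not give how reads were assigned to genes, or whether by strand. Lines that name no gene were left out: reads outside genes took 15.7 to 21.75% of each library, and those assigned ambiguously 0.918 to 1.11%.

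Genes passing edgeR's filterByExpr by group (13016) were scaled by TMM and tested with edgeR's robust quasi-likelihood test, genotype as the only term, Benjamini-Hochberg adjustment over all tested genes and a threshold of 0.05 (R 4.3.3, edgeR 4.0.16, limma 3.58.1, DESeq2 1.42.0). Libraries held 30506676 to 34229030 counts on genes, and CPM use these totals multiplied by the TMM factors. Exon lengths and overlaps come from GENCODE M21, and coordinates and upstream sequences from RefSeq GRCm38.p6. The steps were tested on simulated counts. Single library values were compared by exact permutation over the 70 regroupings.

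The members and gene lists were chosen with earlier results of these data known. Named were the members past the threshold, the 3 highest of each role, those whose groups did not overlap, the extremes of fold change, and of each other list up to 6 called genes and the 2 most abundant. Wnt2, Wnt3a, Wnt5a, Wnt7b, Wnt10b, Nkd1, Nkd2, Lef1, Gpc4, Tmem67 and the other Frizzled genes were added after their values were seen. Tried as alternatives were DESeq2, limma-voom (plain, and with quality weights), other scalings (RLE, upper quartile, library totals only), other filters, dispersion without robust estimation, a replicate block, a term for Y-linked transcripts, the 5 libraries without them, and each library left out in turn.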

Additional observations from a re-analysis of the deposited data

Results flagged for a closer look

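Among 92 groups of 4 libraries (46 tested members, each genotype), 6 held 1 library that stood apart from the other 3 by Dixon's criterion, a share of 6.52%, where chance flags about 1 in 20. In the knockouts, Sfrp1 was at 142 CPM in replicate 3, against 87.2 to 96.2 CPM in the other replicates. Wif1 was at 3.49 CPM in the same library, against 1.77 to 1.99 CPM in the other knockouts. Axin2 was at 48.9 CPM in knockout replicate 4, against 35.5 to 36.8 CPM in the other knockouts. In the controls, Wnt16 was at 3.94 CPM in replicate 1, against 0.905 to 1.35 CPM in the others. Wnt2 was at 0.554 CPM in control replicate 3, against 2.90 to 3.10 CPM in the others, and Lrp5 was at 205 CPM in control replicate 4, against 172 to 177 CPM in the others. None of these genes passed the genotype test.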

How the results depend on the processing

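Fzd7, Lgr4 and Hmgb1 passed the test in all 8 fits with 1 library left out and under the 12 other settings, and the 7 members called kept their sign throughout. Of the 39 not called, 15 changed sign in at least 1 setting. With 1 library left out, members called lower numbered 3 to 11, members higher 0 to 1, Frizzled receptors lower 2 to 6, all genes called 462 (without knockout replicate 2) to 1247 (without knockout replicate 3), core components 2 to 3, surface components 5 to 8, non-canonical genes 0 to 2 and targets 3 to 5, and the log2 fold change of Hmgb1 ran over -2.36 to -2.30. DESeq2, which tested 18036 genes and 56 members, called 2003 genes, 10 members lower and 1 higher, 5 core, 5 non-canonical and 6 target genes. There 17.9% of members were lower, against 5.1% of all tested genes. limma-voom with quality weights called 1912 genes, 11 members lower and 1 higher, 5 core, 5 non-canonical and 7 target genes. With those weights 23.9% of tested members were lower, against 7.35% of all tested genes. The term for Y-linked transcripts gave 1 member higher (Wls), 8 lower (without Fzd2, with Axin2 and Wnt5a), 4 Frizzled receptors lower and 0 non-canonical genes. Under that term 17.4% of tested members were lower, against 4.13% of all tested genes. The 5 libraries without Y-linked transcripts gave 383 genes, 2 Frizzled receptors, 1 core, 5 surface and 0 non-canonical genes, with fewer libraries in the fit. Upper-quartile scaling and no filter each gave 5 targets. Library totals in place of TMM shifted the median log2 fold change by -0.11 and gave 3 non-canonical genes and 371 higher against 997 lower genes (27.1% higher, against 48.8%). They also gave 9 members lower (19.6% of those tested, against 7.66% of all tested genes). For the other changes named here, the cause was not tested.

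Same-numbered libraries did not deviate together (correlations -0.23 to -0.04), and 0 of 4 knockouts correlated best with the control of their number. A replicate block gave 723 genes, 6 members lower (without Fzd9 and Wnt6, with Dkk3), 5 surface and 0 non-canonical genes. With the block 13% of tested members were lower, against 2.67% of all tested genes. Depth limits Fzd4, Fzd9, Lef1, Nkd1, Nkd2, Rspo3, Wnt2b, Wnt7a, Wnt9a, Wnt9b and Wnt16, which average under 2 CPM, and the 12 untested members.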
